A study of Mus musculus with 63 samples.

Results

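MicroRNAs carried by plasma exosomes (Exo-miRs) were compared between LS-G6pc-/- and WT mice of 7 to 9 months of age, the third of the 6 age groups of the series. All mice labelled with this age group were taken, that is, 5 LS-G6pc-/- and 3 WT mice of 63 mice in all. In LS-G6pc-/- mice G6pc, the gene of glucose-6-phosphatase, is lost from the liver alone, which makes them a model of hepatic glycogen storage disease type 1a. The cards hold no assay of G6pc mRNA, so that the genotype labels could not be checked on them. The labels record neither hepatocellular adenoma nor amyloidosis in any of these 8 mice. Strain, sex and the Cre driver are not given in the sources used here. Blood was drawn from the left ventricle at sacrifice of mice fed ad libitum, and each mouse gave 1 plasma sample of 100 µl and 1 array card. The cards of LS-G6pc-/- mice 1 and 2 were run in an earlier calendar year (run period 1) than those of LS-G6pc-/- mice 3 to 5 (run period 2), and the cards of WT mice 1 to 3 were run in a later year still (run period 3). Genotype and run period therefore cannot be told apart within these 8 cards.

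Glucose-6-phosphatase releases free glucose from glycogen breakdown and from gluconeogenesis, and hepatocytes that lack it store glycogen and fat. Exosomes are small vesicles that cells shed into the blood, and their microRNAs come from many sources, with blood cells, endothelium and hepatocytes among the main ones. A microRNA is cut from a hairpin precursor whose arms are named 5p and 3p, and bases 2 to 8 of the mature strand, the seed, pair with target mRNAs.

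The sequences of 7 microRNAs described below are given from RefSeq (GRCm38.p6), with the seed in capitals. Of 335 mouse assays on the card, 90 carried a name identical to a mature sequence in that table. The assay names of miR-193b and miR-30e, also described below, give no arm, so that their sequences are not printed. The following 3 were lower in every LS-G6pc-/- mouse than in every WT mouse with the first reference described below, but not with the second. The 5p arm of miR-744 is the one named in the study. They lie at chr7:101475382-101475403 and chr16:14159630-14159651, both on the plus strand, and at chr11:65734799-65734820 on the minus strand, in the order printed.
miR-139-5p: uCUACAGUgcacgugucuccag
miR-484: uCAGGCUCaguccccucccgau
miR-744-5p: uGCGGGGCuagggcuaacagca
The next 3 were measured in every LS-G6pc-/- mouse and in no WT mouse. They lie at chr7:101475418-101475439, chr12:109711806-109711827 and chr12:109594528-109594549, all on the plus strand.
miR-139-3p: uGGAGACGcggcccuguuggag
miR-380-5p: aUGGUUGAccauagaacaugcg
miR-434-5p: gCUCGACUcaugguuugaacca
The last one, from chrX:7248031-7248051 on the minus strand, gave the earliest Ct of these 8 cards.
miR-188-5p: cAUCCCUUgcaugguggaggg
The 7 seeds were all different. miR-139-5p and miR-139-3p are cut from the same hairpin at chr7:101475376-101475443, shown with both arms in capitals because the 5p arm was lower and the 3p arm detected only in LS-G6pc-/- mice on these cards.
miR-139 hairpin: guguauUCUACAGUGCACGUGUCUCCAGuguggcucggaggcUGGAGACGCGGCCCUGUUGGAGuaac

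Each card holds 384 wells, with 375 microRNA assays, of which 40 were designed for rat sequences, and 9 control wells. The Ct of a well is the number of PCR cycles needed to reach a set fluorescence. An earlier Ct means more microRNA, by about 1 doubling per cycle, and a well without a Ct is listed at 40. A Ct from 14 to 32 counted as measured, as in the methods of the study. LS-G6pc-/- mice 1 and 2 had 185 and 177 measured microRNA assays, LS-G6pc-/- mice 3 to 5 had 108, 106 and 102, and the WT mice had 143, 128 and 143. The cards of run period 1 thus held the most measured assays, those of run period 2 the fewest, and the WT cards lay between them without overlap. On average 135.6 ± 41.6 (SD, n = 5) assays were measured in LS-G6pc-/- and 138 ± 8.66 (SD, n = 3) in WT mice, which did not differ beyond this spread (two-sided exact permutation test over 56 assignments, p = 1; the smallest p that the design allows is 0.0357). The mean of the measured Ct was 26.8 ± 0.649 (SD, n = 5) and 27.3 ± 0.352 (SD, n = 3) cycles (same exact test, p = 0.357). Over the 63 cards of the series the median number of measured microRNA assays was 168.5 on the 8 LS-G6pc-/- cards of run period 1, 109.5 on the 26 of run period 2 and 116 on the 11 of run period 3, against 143 on the 17 WT cards of run period 3.

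**Figure D1:**
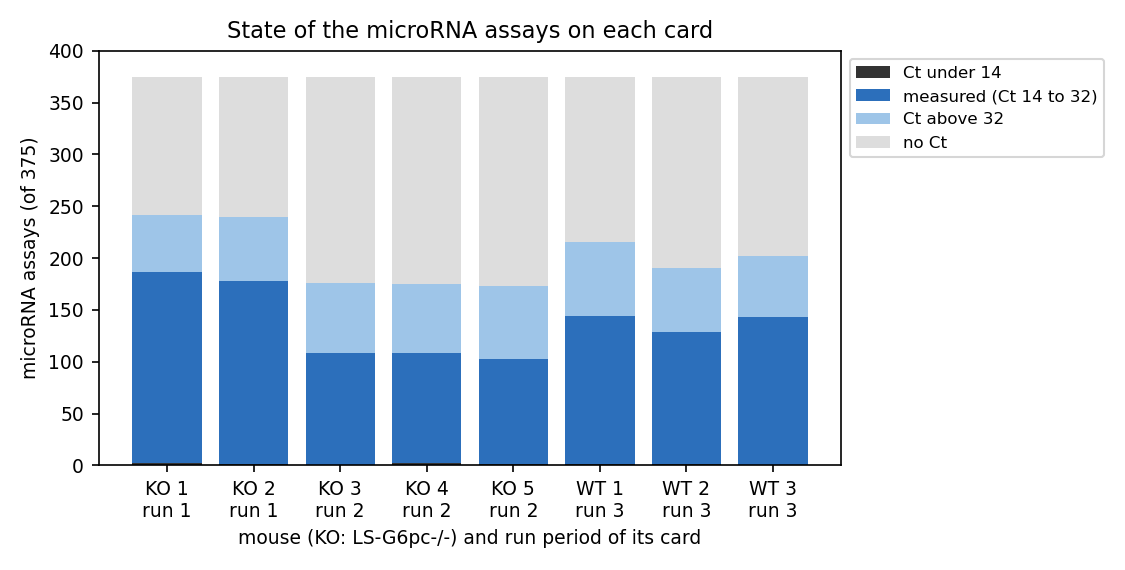
Bars show, for each of the 8 mice, how many of the 375 microRNA assays were measured (Ct 14 to 32), had a Ct above 32, had a Ct under 14 or had no Ct. KO stands for LS-G6pc-/-, and run gives the run period of the card. The cards of KO 1 and KO 2 hold 185 and 177 measured assays, those of KO 3 to KO 5 between 102 and 108, and the WT cards between 128 and 143.

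To give its level, the Ct of a microRNA was subtracted from the mean over all measured Ct values of that card, on a log2 scale on which a higher value means more of the microRNA. Of the 375 assays, 168 were measured on none of the 8 cards, 133 on 1 to 7 and 74 on all 8. The 74 were tested with limma, since a filter that 1 genotype could pass alone would force a difference. The differences in level, LS-G6pc-/- minus WT, ran from -2.59 to 1.41 with a median of -0.63, and 59 of the 74 were below 0. None passed the threshold of 0.05 in either direction (0 of 74, 0%; limma with Benjamini-Hochberg adjustment, smallest adjusted p = 0.717). At an unadjusted p under 0.05, 3 microRNAs were lower (4.05% of those tested) and 0 were higher. The unmoderated test per microRNA gave 4 at that threshold and 0 after adjustment. With weights that give less influence to variable cards, 36 were lower after adjustment. The median difference was then -1.37, near the -1.52 of the LS-G6pc-/- mice of run period 2 alone against WT without weights. With the number of measured assays as a covariate 1 was lower, miR-193b.

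The spread that set these p-values lay within the LS-G6pc-/- mice. The median SD of a microRNA was 1.41 over the 5 LS-G6pc-/- mice, against 0.526 over the 3 WT mice, 0.326 between LS-G6pc-/- mice 1 and 2 and 0.607 among LS-G6pc-/- mice 3 to 5. Set against the mean level of WT, the median of the 74 microRNAs was 0.65 and 0.83 in LS-G6pc-/- mice 1 and 2, and -1.40, -1.47 and -1.87 in mice 3 to 5. The WT mice had medians of 0.04, -0.28 and 0.23. The LS-G6pc-/- mice of run period 1 thus lay above WT and those of run period 2 below it.

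**Figure D2:**
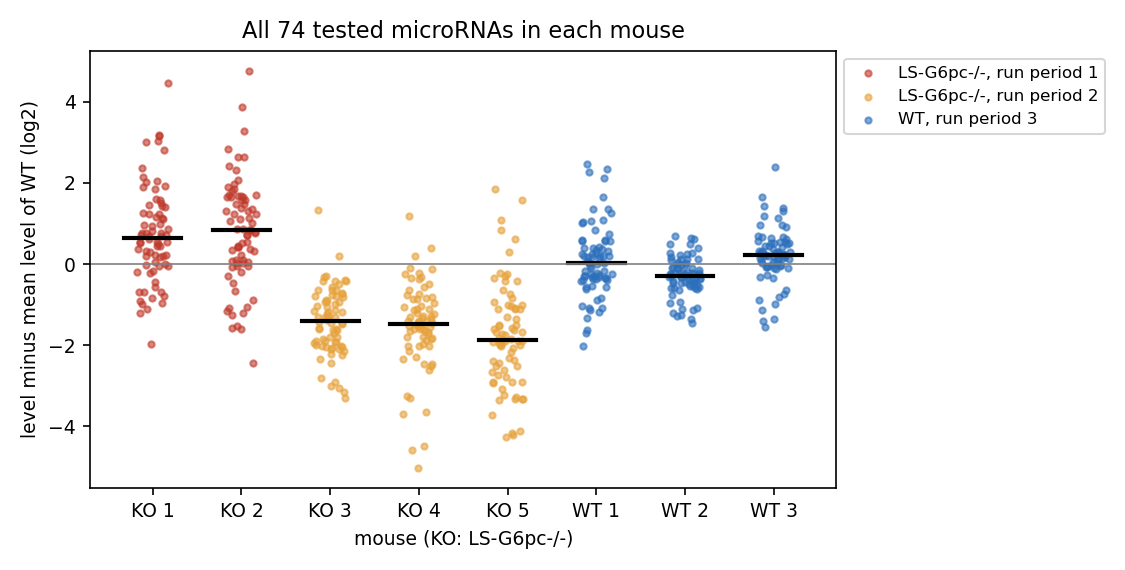
Each point is 1 of the 74 tested microRNAs, plotted by mouse (horizontal axis) as its level minus the mean level of the WT mice (vertical axis, log2), with the median of each mouse as a black line. The medians are 0.65 and 0.83 in the LS-G6pc-/- mice of run period 1 and from -1.87 to -1.40 in those of run period 2.

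The LS-G6pc-/- mice were therefore also split by run period and compared in a fit with 3 groups, which was chosen after the data were seen. The counts of this fit describe the shift just given, on the same values, and are no further evidence of it. LS-G6pc-/- mice 3 to 5 were lower than LS-G6pc-/- mice 1 and 2 in 58 of 74 microRNAs (78.4%) and higher in 0 (limma, adjusted p under 0.05), with a median difference of -2.35. The LS-G6pc-/- mice of run period 1 were higher than WT in 9 microRNAs (12.2%) and lower in 0, with a median of 0.70. Those of run period 2 were lower than WT in 49 (66.2%) and higher in 0, with a median of -1.52. The same WT mice stand in both comparisons. In 24 of the 74 microRNAs (32.4%) both mice of run period 1 were above all WT mice and all 3 of run period 2 were below them.

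A second reference was tried as well. When the mean over the 74 shared assays was taken as the reference in place of the mean over all measured assays, the median difference between LS-G6pc-/- and WT was 0.01, with 37 microRNAs below 0 and 37 above. This balance follows from the reference itself, which centres each card on the microRNAs that are tested. The comparison of run period 2 with run period 1 then gave 1 lower microRNA (1.35%), miR-30d, and 2 higher ones (2.7%), miR-194 and miR-494. Run period 1 against WT gave 0 lower and 1 higher microRNA (1.35%), which was miR-30d, and run period 2 against WT gave 0 in either direction. miR-30d had levels of 2.38 and 4.33 in LS-G6pc-/- mice 1 and 2, of -1.42, -2.45 and -2.10 in mice 3 to 5, and of -0.07, -1.01 and -0.23 in WT mice. Its values in the 2 LS-G6pc-/- subsets lay on opposite sides of all WT values.

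The level was lower in every LS-G6pc-/- mouse than in every WT mouse for 5 of 74 microRNAs (6.76%), namely miR-139-5p, miR-193b, miR-30e, miR-744 and miR-484, and 0 were higher in every LS-G6pc-/- mouse. All 5 were also higher in both LS-G6pc-/- mice of run period 1 than in the 3 of run period 2. miR-139-5p, whose sequence is given above, is known in human liver as a microRNA that falls in hepatocellular carcinoma. Its levels were -0.01, -0.48, -1.22, -4.35 and -3.53 in LS-G6pc-/- mice 1 to 5 and 0.27, 0.93 and 0.81 in WT mice. All LS-G6pc-/- values were below 0 and all WT values above it. The group means, -1.92 ± 1.92 (SD, n = 5) and 0.67 ± 0.35 (SD, n = 3), gave a difference of -2.59 ± 1.00 (SE), or a 6.02-fold lower level, with an unadjusted p of 0.0139 and an adjusted p of 0.717 by limma.

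miR-193b, a microRNA of liver and adipose tissue that is listed among those enriched in hepatocytes, had levels of -0.97, -1.81, -3.08, -2.73 and -3.56 in LS-G6pc-/- mice 1 to 5. The WT mice had levels of -0.85, 0.12 and -0.12. The highest LS-G6pc-/- mouse lay 0.12 below the lowest WT mouse, and the other LS-G6pc-/- mice lay well below it. The difference was -2.15 ± 0.92 (SE, limma, unadjusted p = 0.0257, adjusted p = 0.717), a 4.44-fold lower level. miR-30e, of a family that is abundant in most tissues, had levels of 1.40, 2.06, 0.90, -1.29 and -1.81 in LS-G6pc-/- mice and of 2.54, 2.13 and 2.39 in WT mice. The WT mice were close together, while LS-G6pc-/- mice 4 and 5 lay far below the other 3. The difference was -2.10 ± 0.98 (SE, limma, unadjusted p = 0.0385, adjusted p = 0.717).

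miR-744, named by the study on these samples, had levels of 0.55, 0.87, 0.07, 0.02 and -1.80 in LS-G6pc-/- mice and of 1.73, 1.12 and 1.76 in WT mice. The gap between the groups was 0.24, and LS-G6pc-/- mouse 5 stood lowest. The difference was -1.59 ± 0.92 (SE, limma, adjusted p = 0.717). miR-484, a microRNA known to act on mitochondrial fission, had levels of 2.85, 3.16, 2.48, 2.78 and 1.70 against 3.50, 4.18 and 4.49. Its values were the least spread of the 5 within LS-G6pc-/- mice, with an SD of 0.558, and the difference was -1.46 ± 0.90 (SE, limma, adjusted p = 0.717).

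**Figure D3:**
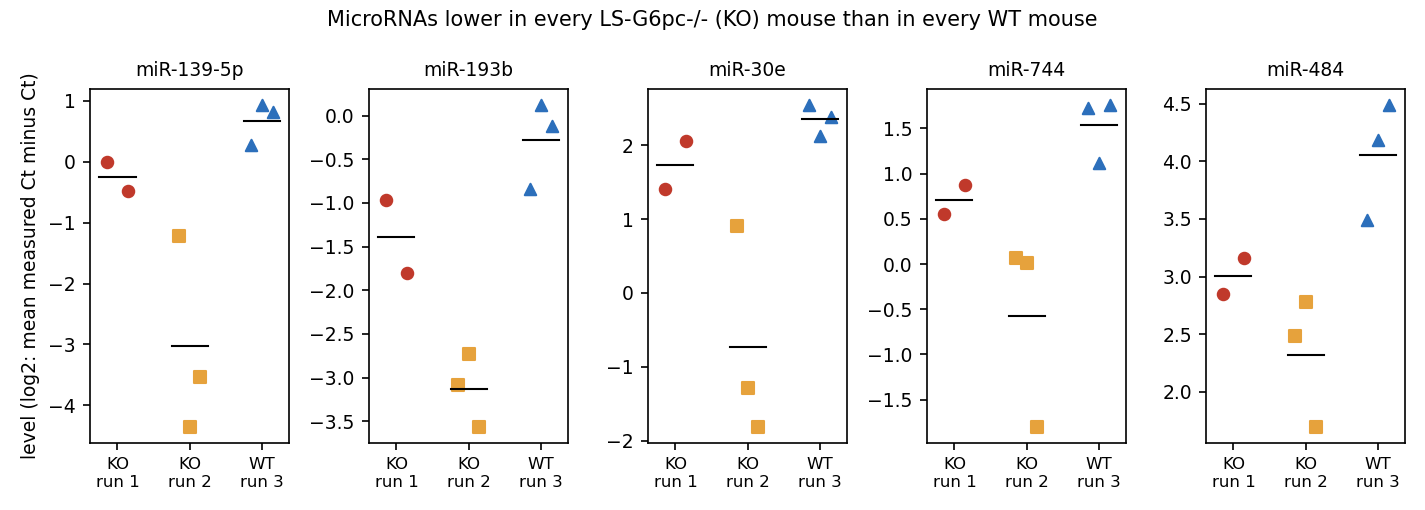
Points are single mice and black lines the means of each genotype and run period, for the 5 microRNAs lower in every LS-G6pc-/- (KO) mouse than in every WT mouse. The vertical axis is the level (log2), with a scale of its own for each microRNA. For miR-139-5p the highest LS-G6pc-/- mouse is at -0.01 and the lowest WT mouse at 0.27.

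With the mean over the 74 shared assays as the reference, 3 microRNAs (4.05%) were lower in every LS-G6pc-/- mouse and 1 (1.35%) was higher. The lower ones were miR-193b, miR-126-3p and miR-301b. On this scale miR-193b lay between -4.37 and -2.97 in LS-G6pc-/- mice and between -2.69 and -1.34 in WT mice, so that it alone was lower in every LS-G6pc-/- mouse with both references. miR-126-3p, which comes from an intron of the endothelial gene Egfl7, had means of 0.58 and 1.78. The higher one was let-7c, of the let-7 family that restrains growth and insulin signaling, with a mean of 0.59 in LS-G6pc-/- mice and of -0.46 in WT mice. None of these passed the threshold (limma, smallest adjusted p over the 74 microRNAs = 0.259). The unadjusted p-values were 0.00588 for miR-193b (difference -1.51), 0.0103 for let-7c (1.05), 0.0188 for miR-126-3p (-1.20) and 0.0384 for miR-301b (-0.77).

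The next microRNAs by p-value in the lower direction were miR-126-3p, miR-687, miR-671-3p, miR-222, miR-215, miR-331-3p and miR-106a, with differences from -1.86 to -1.48. In all 7 the groups overlapped. miR-222, another endothelial microRNA, had levels of 4.95, 4.69, 2.88, 4.27 and 3.03 in LS-G6pc-/- mice and of 4.64, 4.52 and 8.16 in WT mice. Its difference of -1.81 thus rested mainly on WT mouse 3. miR-331-3p had levels of 0.36 and 0.98 in LS-G6pc-/- mice 1 and 2, of -3.28, -3.56 and -4.38 in mice 3 to 5, and of -0.67, -1.03 and 0.92 in WT mice, a pattern that followed run period. In the higher direction the smallest p-values belonged to miR-27a and miR-218, with differences of 1.35 and 1.41 (unadjusted p = 0.203 and 0.215). miR-218, which is expressed in motor neurons, was at 2.79 and 2.19 in LS-G6pc-/- mice 1 and 2, while the other 3 LS-G6pc-/- mice, at -3.67, -2.49 and -0.08, overlapped the WT mice at -1.91, -1.75 and -1.34.

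The 5 microRNAs that were lower in every LS-G6pc-/- mouse were then followed at the other 5 ages, each with WT mice of its own, in one fit over the 63 mice. miR-744 and miR-139-5p were below WT at all 6 ages, miR-30e and miR-484 as well, and miR-193b at 3 of 6. In these counts the sign at 7 to 9 months was fixed by the way the 5 were picked. How many of all tested microRNAs were below WT at every age was not counted, so that such a run cannot be called particular to the 5. The difference of miR-139-5p ran from -2.59 at 7 to 9 months to -0.51 at the fourth age, and that of miR-744 from -2.48 at the fifth age to -0.87 at the second. miR-193b was at -2.15 at 7 to 9 months, at 0.27 and 0.95 at the 2 ages that follow and at -1.66 at the sixth. Since most WT cards of the series were run in run period 3, the fit was repeated with run period as a block. The difference at 7 to 9 months was then -1.65 for miR-139-5p, -2.11 for miR-193b, -1.28 for miR-30e, -1.25 for miR-744 and -0.63 for miR-484, with an adjusted p of 0.755 for all but miR-484, at 0.837 (limma). With this block miR-139-5p, miR-744 and miR-30e had a negative sign at all 6 ages, some of them close to 0. miR-139-5p was at -0.03 at the first age and at -0.09 at the fourth (limma, adjusted p = 0.977 and 0.990). miR-30e was at -0.16 at the fourth age (limma, adjusted p = 0.990). miR-484 was above 0 at 3 ages, by 0.60, 0.08 and 0.37 at the first, the second and the fifth.

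Whether 7 to 9 months departs from the other ages was tested as the difference at this age minus the mean of the other 5 differences. None of the 61 microRNAs measured in at least 95% of the mice passed the threshold (0%; limma, smallest adjusted p = 0.995), and 0 had an unadjusted p under 0.05. The largest departures by p-value were those of miR-193b (-1.84, 95% interval -3.74 to 0.06), miR-126-3p (-1.48, -3.52 to 0.55), let-7b (1.33, -0.57 to 3.23), miR-139-5p (-1.37, -3.38 to 0.65) and miR-342-3p (-1.56, -4.08 to 0.96). These intervals all held 0. For miR-193b the interval was -3.45 to -0.25 when assays measured in all 63 mice served as reference (limma, adjusted p = 0.729), and -3.80 to -0.13 when run period was a block (limma, adjusted p = 0.984).

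**Figure D4:**
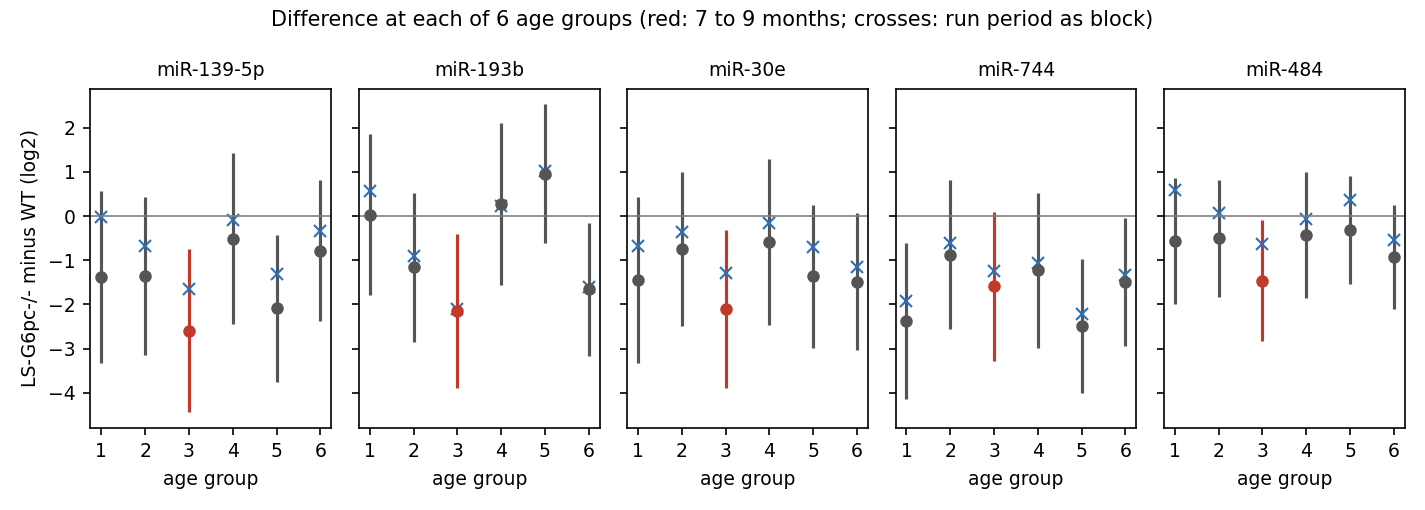
Points show the difference in level, LS-G6pc-/- minus WT (vertical axis, log2), at each of the 6 age groups (horizontal axis), with 95% intervals from the fit over 63 mice, and crosses show the difference with run period as a block. The third age group, 7 to 9 months, at which these microRNAs were picked, is in red. miR-139-5p and miR-744 are below 0 at all 6 ages, and miR-193b is at -2.15 at the third and 0.95 at the fifth.

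In run period 3, the only one with several mice of each genotype, LS-G6pc-/- and WT mice of the other ages can be set side by side. miR-744 was at -0.28 ± 1.52 (SD, n = 10) in LS-G6pc-/- and at 1.38 ± 0.87 (SD, n = 14) in WT mice there. miR-139-5p was at 0.58 ± 0.94 (SD, n = 11) and 1.00 ± 0.88 (SD, n = 14), and miR-484 at 3.64 ± 0.53 (SD, n = 11) and 3.76 ± 0.72 (SD, n = 14). miR-30e was at 1.21 ± 1.08 (SD, n = 11) and 1.99 ± 0.76 (SD, n = 14), and miR-193b at -1.20 ± 1.24 (SD, n = 11) and -0.97 ± 1.01 (SD, n = 14). All 5 means were lower in LS-G6pc-/- mice, that of miR-744 by more than the SD of either group and the others by less than the SD of LS-G6pc-/- mice. How many of the 74 microRNAs had a lower mean in these mice was not counted, so that a lower mean cannot be called particular to the 5. The differences within run period 3 were not tested, because the mice are of other ages.

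Several assays outside the 74 showed far larger differences, and they were chosen for description after their values were seen. Of the 275 assays with a Ct on at least 1 card, 5 (1.82%) had an earlier raw Ct in every LS-G6pc-/- mouse than in every WT mouse, and 9 (3.27%) a later one, with a well without a Ct counted as 40. The 5 early ones were miR-224, miR-139-3p, the rat assay rno-miR-327, miR-434-5p and miR-380-5p. miR-224, known to rise in human hepatocellular carcinoma, had a Ct of 18.2, 18.9, 19.8, 21.1 and 20.1 in LS-G6pc-/- mice 1 to 5 and of 31.98, 35.2 and 31.0 in WT mice. The LS-G6pc-/- mice lay within 3 cycles of each other and the nearest WT mouse 9.89 cycles later. Where at least 2 cards of each genotype were required and missing values left out, which drops WT mouse 2, miR-224 was higher by 11.6 on the log2 scale (limma, adjusted p = 4.19e-06 over 132 microRNAs), and with missing values set 1 below the lowest level by 12.1 (adjusted p = 4.08e-08).

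Over the series the Ct of miR-224 differed between run periods within LS-G6pc-/- mice. At the other ages its median Ct was 19.1 in the 6 LS-G6pc-/- mice of run period 1 and 20.4 in the 23 of run period 2, of which 18 had it measured, but 32.2 in the 11 LS-G6pc-/- mice of run period 3, where the lowest was 27.9. The 14 WT mice of run period 3 had a median of 31.8 and a lowest Ct of 28.4. The only WT mouse outside run period 3, of another age and run in run period 2, had a Ct of 32.6, unlike the median of LS-G6pc-/- mice of that run period. Some LS-G6pc-/- mice of run period 2 were about as late, with a Ct of 31.7, 32.3, 33.1, 33.3 and 33.8, and 1 had no Ct. The early Ct of miR-224 was thus found in all LS-G6pc-/- mice of run period 1 and in most, not all, of run period 2. It was found in no mouse of either genotype in run period 3, and the 1 WT mouse of run period 2 stood with the late LS-G6pc-/- mice of that run period.

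miR-155, which activated lymphocytes and macrophages make, had a Ct of 17.9, 18.7, 32.2, 19.4 and 18.6 in LS-G6pc-/- mice and of 30.5, 28.8 and 27.2 in WT mice. LS-G6pc-/- mouse 3 was later than all WT mice, and the other 4 were earlier than them by over 7 cycles. In the fit that allowed missing cards, where mouse 3 dropped out, miR-155 was higher by 9.57 (limma, adjusted p = 4.45e-05). With the missing value of mouse 3 set low instead, the difference was 7.07 and did not pass the threshold (limma, adjusted p = 0.107). At the other ages its median Ct was 18.8, 30.05 and 29.4 in LS-G6pc-/- mice of run periods 1, 2 and 3. Some LS-G6pc-/- mice of run period 2 were as early as those of run period 1, with a Ct of 18.7, 18.9, 18.9, 19.3, 19.5 and 19.6. The median was 29.0 in WT mice of run period 3, and the WT mouse of run period 2 had a Ct of 29.5. miR-188-5p had a Ct of 11.7, 12.1, 29.3, 12.4 and 12.5 in LS-G6pc-/- mice and of 28.7, 28.6 and 28.0 in WT mice. As with miR-155, LS-G6pc-/- mouse 3 stood with the WT mice. Over the series a Ct under 14 of miR-188-5p was found in 8 of 8 mice of run period 1, in 5 of 26 LS-G6pc-/- mice of run period 2 while none of the 11 LS-G6pc-/- and 17 WT mice of run period 3 had one. The WT mouse of run period 2 had a Ct of 31.5.

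**Figure D5:**
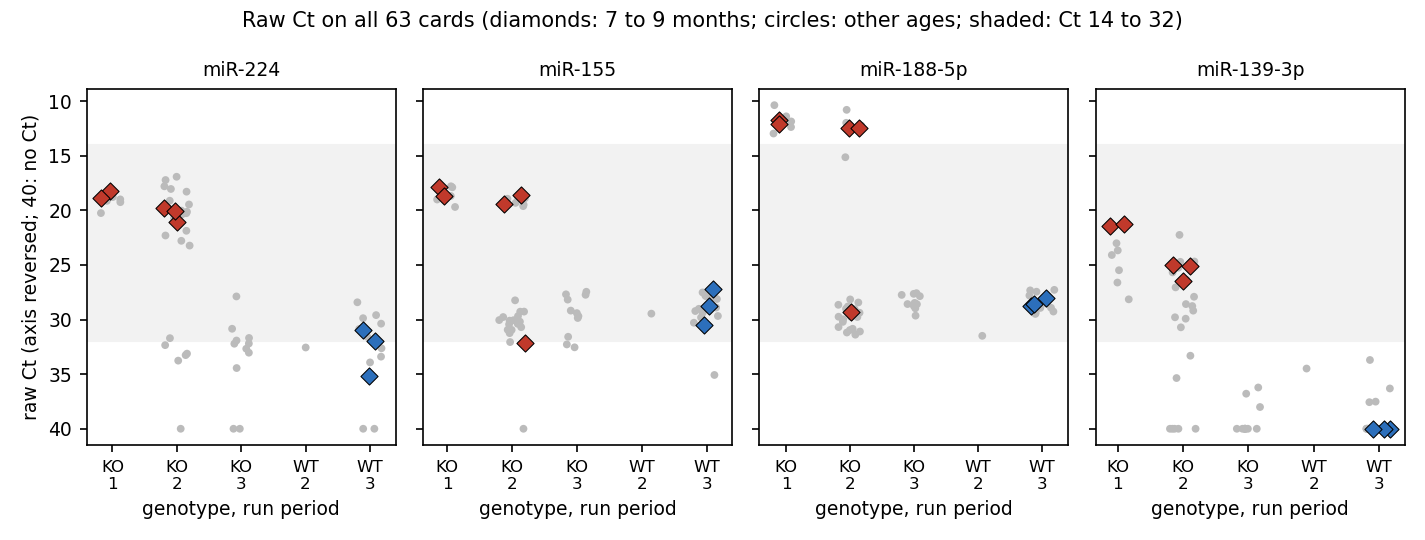
Raw Ct (vertical axis, reversed so that earlier is higher; 40 means no Ct) of miR-224, miR-155, miR-188-5p and miR-139-3p on all 63 cards, by genotype and run period (horizontal axis; KO is LS-G6pc-/-). Diamonds are the 8 mice of 7 to 9 months and circles the mice of the other ages. miR-224 lies between 18.2 and 21.1 in the 5 LS-G6pc-/- mice and between 31.0 and 35.2 in the WT mice, while the LS-G6pc-/- mice of run period 3 have a median of 32.2.

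Detection set apart 3 of the 5 early assays named above. miR-139-3p, miR-380-5p and miR-434-5p were measured in all 5 LS-G6pc-/- and in 0 of 3 WT mice (3 of the 133 assays measured on 1 to 7 cards, 2.26%), and 0 assays were measured in all WT and no LS-G6pc-/- mice (0%). Each had p = 0.0179 in the two-sided Fisher's exact test, the smallest that 5 against 3 mice allow, and an adjusted p of 0.792. miR-139-3p, the 3p arm of the hairpin printed above, had a Ct of 21.4, 21.3, 26.5, 24.97 and 25.1 in LS-G6pc-/- mice and none in WT mice. In the same mice the 5p arm had a Ct of 26.4, 26.4, 28.5, 31.6 and 30.9, and of 26.8, 26.8 and 26.3 in WT mice. The level of the 5p arm was thus lower, relative to the card, in every mouse in which the 3p arm was measured.

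miR-380-5p and miR-434-5p come from the imprinted cluster between Dlk1 and Dio3 on chromosome 12. miR-434-5p had a Ct of 25.7, 27.1, 28.2, 27.7 and 27.4 in LS-G6pc-/- mice, of 34.8 in WT mouse 1 and none in the other WT mice. The opposite arm, miR-434-3p, was measured in 1 LS-G6pc-/- and 2 WT mice. miR-380-5p had a Ct of 25.6, 25.9, 29.6, 31.0 and 30.5 in LS-G6pc-/- mice and of 33.0 in WT mouse 1. Over the series the detection of these assays differed between run periods within LS-G6pc-/- mice. Of the LS-G6pc-/- mice, 8 of 8 in run period 1, 19 of 26 in run period 2 and 0 of 11 in run period 3 had a measured Ct of miR-139-3p, and the counts were 8, 18 and 0 for miR-380-5p and 6, 11 and 0 for miR-434-5p. The WT mouse of run period 2 had none of the 3 measured, and of the 17 WT mice of run period 3, 1 had miR-380-5p measured and 0 the other assays.

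The 9 assays with a later Ct in every LS-G6pc-/- mouse were miR-29a, miR-342-3p, miR-186, miR-200c, miR-331-5p, miR-680, rno-miR-196c, miR-7b and miR-665, with miR-7b and miR-665 measured in none of the 8 mice. miR-29a, which represses collagens, had a Ct of 27.6, 26.5, 26.2, 32.9 and 32.5 in LS-G6pc-/- mice and of 23.8, 25.2 and 23.4 in WT mice. LS-G6pc-/- mice 4 and 5 were past the measured range and the nearest pair across genotypes was 0.986 cycles apart. With at least 2 cards of each genotype, miR-29a was lower by 3.43 with missing values left out (limma, adjusted p = 0.0605), and by 4.24 with them set 1 below the lowest level (adjusted p = 0.0131). miR-342-3p, of leukocytes, had a Ct of 28.3, 27.7, 28.0, 32.3 and 31.7 against 27.5, 26.9 and 26.0, with only 0.192 cycles between the groups. Both microRNAs were named by the study on these samples. At the other ages in run period 3 the median Ct of miR-29a was 25.6 in LS-G6pc-/- and 24.5 in WT mice, and that of miR-342-3p was 26.1 and 25.9.

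miR-186 had a Ct of 30.8, 29.0, 27.6, 31.5 and 34.7 in LS-G6pc-/- mice and of 25.1, 26.4 and 25.7 in WT mice, and was lower by 4.60 where missing cards, here LS-G6pc-/- mouse 5, were left out (limma, adjusted p = 0.0335) and by 5.09 where they were set low (adjusted p = 0.0109). Its median Ct at the other ages was 33.2, 28.1 and 27.4 in LS-G6pc-/- mice of run periods 1, 2 and 3 and 26.9 in WT mice of run period 3. miR-200c, which keeps cells epithelial, had a Ct of 30.4, 30.03, 31.5, 32.3 and 38.5 against 29.2, 29.6 and 28.1. Its groups were 0.462 cycles apart, less than the range within either genotype.

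Of the 133 assays measured on 1 to 7 cards, 8 were measured in all WT mice and in LS-G6pc-/- mice 1 and 2 but in none of mice 3 to 5. A further 17 were measured in LS-G6pc-/- mice 1 and 2 alone. The reverse was found for 0 assays, both for all of LS-G6pc-/- mice 3 to 5 alone and for these with all WT mice. Among the 8 were miR-34a, a p53 target linked to fatty liver, and miR-200b, miR-99a, miR-425 and miR-322. miR-34a had a Ct of 26.6 and 26.5 in LS-G6pc-/- mice 1 and 2, of 32.6 and 39.1 in mice 3 and 4, none in mouse 5, and of 29.9, 30.8 and 28.0 in WT mice. It was thus earliest in run period 1 and missing in run period 2, in the same order as the number of measured assays per card.

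Of the microRNAs tied to hepatic lipid and glucose handling, 11 were on the card and 2 were tested. miR-21, which rises in injured liver, had levels of 4.53, 4.35, 2.01, 1.23 and 1.55 in LS-G6pc-/- mice and of 2.43, 2.98 and 3.71 in WT mice. let-7i had levels of 2.43, 3.04, -0.05, 0.21 and -1.48 against 1.21, 1.60 and 2.43. In both, the LS-G6pc-/- mice of run period 1 were at or above all WT mice and those of run period 2 below all of them. miR-122, which dominates the microRNA content of hepatocytes, gave a measured Ct in all 5 LS-G6pc-/- mice, at a Ct of 23.5, 23.9, 24.1, 23.7 and 23.1, but in 1 of 3 WT mice, with a Ct of 21.1, none and 32.6. The LS-G6pc-/- mice were thus within 1 cycle of each other across both run periods, and the WT mice lay on either side of them. At the other ages the median Ct of miR-122 was 25.7, 27.4 and 27.9 in LS-G6pc-/- mice of run periods 1 to 3 and 28.3 in WT mice of run period 3.

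In the hepatocyte list, 1 of the 5 tested members, miR-193b, was lower in LS-G6pc-/- mice of run period 2 than of run period 1 by the 3-group fit, beside 58 of all 74 (78.4%). Of its 6 assays on the card 5 were tested, 4 were below 0, beside 59 of all 74, and 0 passed the test. The median difference was -0.22, beside -0.63 for all tested microRNAs. miR-192, of liver and gut, had levels of 2.20, 1.78, 1.96, 2.15 and 2.54 in LS-G6pc-/- mice and of 3.599, 1.18 and 1.98 in WT mice, and the WT mice spanned all LS-G6pc-/- values. miR-194, from the same cluster, had levels from -1.64 to -1.17 in LS-G6pc-/- mice and from -1.33 to 0.66 in WT mice. The 2 run periods of LS-G6pc-/- mice overlapped in only 9 of the 74 microRNAs. Of these, miR-192, miR-194 and miR-101a are on the list. The rest, miR-215, miR-687, miR-671-3p, miR-409-3p, miR-494 and rno-miR-207, are not. In the other 65 (87.8%), with miR-148a and miR-193b of the list among them, both mice of run period 1 were above all 3 of run period 2. With the 74 shared assays as reference, miR-192 and miR-194 were higher in run period 2 than in run period 1, by 2.56 and 2.48 (limma, adjusted p = 0.0501 and 0.0289).

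Of the blood cell microRNAs, 5 of 5 in the erythrocyte list, 4 of 5 in the platelet list and 5 of 5 in the leukocyte list were lower in LS-G6pc-/- mice of run period 2 than of run period 1 in the 3-group fit, near the 78.4% of all tested microRNAs. In bulk exosome RNA, fewer vesicles of a cell type and less of a microRNA per vesicle cannot be told apart. All 5 tested erythrocyte microRNAs (miR-451, miR-486, miR-16, miR-92a and miR-25) were below 0, with a median of -0.54 beside -0.63 for all, and 0 passed the test. miR-451, the most erythroid of them, had levels of 7.92, 8.84, 6.02, 6.23 and 5.53 in LS-G6pc-/- mice and of 6.95, 6.91 and 7.73 in WT mice. The platelet list (4 of 5 below 0, median -0.85) and the leukocyte list (5 of 5 below 0, median -0.46) also gave 0 calls. miR-223, of myeloid cells and platelets, had levels of 5.12, 4.49, 2.72, 1.96 and 1.71 against 3.32, 3.56 and 4.09, with the WT mice between the 2 run periods of LS-G6pc-/- mice. The 3 tested endothelial microRNAs, miR-126-3p, miR-126-5p and miR-222, had a median of -1.81 and 0 calls. Relative to WT, the LS-G6pc-/- mice of run period 1 had medians of 0.05 and -0.06, and those of run period 2 lay between -2.74 and -2.15.

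Families of related sequence gave 0 calls as well. Of the let-7 family 6 of 9 members were tested, 3 above and 3 below 0, with a median of 0.17 beside -0.63 for all. All 6 were higher than the WT mean in LS-G6pc-/- mice 1 and 2, with medians of 1.67 and 1.91, and all 6 were lower than it in mice 3 to 5, with medians from -1.70 to -0.70. The miR-17-92 cluster and its paralogs, which drive proliferation, had 11 of 13 members tested and all 11 below 0, from -1.48 for miR-106a to -0.07 for miR-25, with a median of -0.70. Of the miR-15/16 family, which restrains the cell cycle, 4 were tested and all were below 0, with a median of -1.25. miR-15b, the lowest of them, had levels of 1.46, 2.58, -2.12, -1.58 and -3.33 in LS-G6pc-/- mice and of -0.76, 1.19 and 2.35 in WT mice, so that LS-G6pc-/- mice 1 and 2 lay among or above the WT mice. Of the 5 miR-30 members 4 were below 0, from -2.10 for miR-30e to 0.58 for miR-30d, with a median of -0.74.

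Of the microRNAs that the study's text names, 11 were listed as named for LS-G6pc-/- against WT or for change with age, and those named for amyloidosis alone were not. The study picked them from these same mice, so that their direction is not independent evidence here. Of these 9 were tested, 8 were below 0 and 0 passed the test, with a median of -0.92 beside -0.63 for all. Apart from miR-744, their groups overlapped. miR-145, of smooth muscle and stellate cells, had levels of 1.57, 3.75, -0.51, -3.15 and -1.43 in LS-G6pc-/- mice and of 0.15, 1.60 and 2.26 in WT mice. miR-142-3p, of blood cells, had levels of 4.34, 5.26, 1.95, 2.80 and 1.99 against 2.54, 4.19 and 3.996, and miR-409-3p had levels from -3.09 to 0.59 against -3.32 to 0.34. The WT values of these 3 lay within the range of the LS-G6pc-/- values, apart from miR-409-3p, where the lowest value was that of a WT mouse.

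Of the control wells, U6 small nuclear RNA in 4 wells had a mean Ct of 20.04 ± 1.59 (SD, n = 5) in LS-G6pc-/- and of 20.3 ± 1.62 (SD, n = 3) in WT mice (two-sided exact permutation test, p = 0.893, adjusted p = 1 over 5 card values). snoRNA135 differed by -0.789 cycles (exact p = 0.429, adjusted p = 0.714). snoRNA202 had a Ct of 29.6, 28.9, 31.9, 28.4 and 31.6 in LS-G6pc-/- mice and of 27.9, 28.4 and 26.9 in WT mice. All WT mice were earlier than all LS-G6pc-/- mice, the nearest by under 0.1 cycle, which gives the smallest p the design allows (exact p = 0.0357, adjusted p = 0.179). A small RNA meant as a control thus separated the genotypes in raw Ct. It did so in level too, from -4.58 to -1.22 in LS-G6pc-/- mice and from -0.77 to 0.23 in WT mice. The 5 of the 74 microRNAs were separated in level, but their raw Ct overlapped between the genotypes. The part of run period in either was not tested.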

How the data were processed

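Plasma exosome RNA was profiled on 1 TaqMan card per mouse. The authors deposited raw Ct values, which fall by 1 as the template doubles and so lie on an inverted log2 scale, and a normalized table in which the mean of Ct 14 to 32 of each mouse was subtracted with PIPE-T. The raw table, which equalled the single card files, was used here. The other columns of the card files were deposited well by well, and from them only the fluorescence threshold (0.1, of unit other) was read, with the year of the run from the header. The level was the mean of the measured Ct minus the Ct. Levels of the 74 microRNAs measured on all 8 cards were fitted with limma 3.58.1 in R 4.3.3, with Benjamini-Hochberg adjustment and a threshold of 0.05, on group means without covariates. Fisher's exact test was used for detection and exact permutation for card values (Python 3.11.15, scipy 1.17.1). The fit was tested on simulated data with independent noise and a genotype effect alone. These data held no shift between run periods, so that the effect of such a shift on the error rate was not tested. No read counts exist, and precision rests on the number of mice and of measured assays. Single mice are the replicates.

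The members, lists and tests were chosen with earlier results of these data known. Named were the control wells, the 12 smallest p-values in each direction, up to 4 members of each list and all tested members of that of the study's text, assays measured in 1 genotype alone, and the 5 smallest p-values of the contrast with the other ages. Assays named for their raw Ct, and the split by run period, were chosen after the data were seen. The study's rank product, which permutes samples, and its pathway analysis were not run. Alternatives were other references, Ct limits, filters, models and leaving out each mouse.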

Additional observations from a re-analysis of the deposited data

Results flagged for a closer look

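Some wells gave a Ct under 14, outside the range counted as measured and so outside the comparisons of level. For miR-188-5p these were 11.7, 12.1, 12.4 and 12.5 in LS-G6pc-/- mice 1, 2, 4 and 5. When a Ct under 14 was counted as measured, miR-188-5p was higher in LS-G6pc-/- mice by 12.3 on the log2 scale (limma, adjusted p = 0.0200). It entered that fit only through these early LS-G6pc-/- wells, so that the fit is no independent evidence of a difference. Over the series such wells of miR-188-5p were found in 8 of 8 mice of run period 1 and 5 of 26 LS-G6pc-/- mice of run period 2. No mouse of run period 3 had one. miR-874 had a Ct of 12.2 in LS-G6pc-/- mouse 1, of 16.6 in mouse 5 and none in the other 6 mice. Over the series a Ct under 14 of miR-874 was found in 4 mice, all of run period 1. miR-667 had a Ct of 13.4 and 13.7 in WT mice 1 and 2, of 15.1, 20.5 and 23.7 in LS-G6pc-/- mice 3, 1 and 2, and none in WT mouse 3. miR-31, an epithelial microRNA, had a Ct of 13.4 in LS-G6pc-/- mouse 4 and of 30.5 in mouse 3, against 28.8, 30.01 and 30.8 in WT mice.

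The well for ath-miR159a, a plant microRNA that mice lack, gave a Ct of 30.3 in WT mouse 3 and of 36.2 in LS-G6pc-/- mouse 2, and none on the other 6 cards.

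None of the 64 sets of 5 LS-G6pc-/- values examined, 55 of them levels of named microRNAs, held a mouse set apart from the other 4 by the gap test at 95%. By chance about 5% of such sets would hold such a mouse. In 65 of the 74 tested microRNAs the run periods of LS-G6pc-/- mice lay apart, which leaves a single mouse little room to be flagged. miR-155 and miR-188-5p, in which LS-G6pc-/- mouse 3 stood far from the other 4 in raw Ct, were not among the 55.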

How the results depend on the processing

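Of 1363 differences recomputed for 55 named microRNAs, 1251 kept their direction and side of the threshold, 33 kept their direction and passed it, and 79 changed sign; the cause was not tested. With the 74 shared assays as reference the differences that changed sign were miR-101a 0.42, miR-16 0.10, miR-451 0.35, miR-223 0.18, miR-150 0.19, miR-126-5p 0.29, miR-21 0.33, let-7d 0.074, miR-494 0.31, miR-142-3p 0.33 and miR-192 0.51, and between run periods 2 and 1, 1 microRNA was lower and 2 higher, against WT 1 was higher in run period 1 and 0 lower in run period 2. With the median Ct miR-409-3p was at -0.027, and with U6 miR-101a was at 0.035 and miR-192 at 0.13. Quantile normalization gave miR-101a 0.13, miR-16 0.0055, miR-451 0.19, miR-223 0.14, miR-150 0.10, miR-126-5p 0.19, miR-21 0.45, miR-19b 0.095, miR-494 0.11, miR-142-3p 0.49 and miR-192 0.30. Raw Ct gave miR-101a 0.26, miR-451 0.19, miR-223 0.023, miR-150 0.036, miR-126-5p 0.13, miR-21 0.18, miR-494 0.16, miR-142-3p 0.17 and miR-192 0.36. In the 63 mice with run period as a block, miR-687 was at 0.59, miR-27a at -0.90, miR-218 at -1.997, miR-133a at -0.27, miR-148a at -0.13, miR-125b-5p at -0.53, miR-685 at -0.52, miR-30d at -0.93, let-7c at -0.14, let-7e at -0.47, miR-152 at -0.31 and miR-486 at 0.094. Sample weights gave 36 lower microRNAs, with miR-27a -0.14, miR-218 -0.43, miR-125b-5p -0.47, miR-30d -1.11, miR-197 -0.13, let-7b -0.48, let-7c -0.33, let-7e -0.83, miR-152 -0.38, miR-101a 0.28 and miR-192 0.23.

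Ct from 14 to 35 put miR-192 at 0.038 and left 1 assay measured in all LS-G6pc-/- and no WT mice, as did counting any Ct. Counting a Ct under 14 gave 1 higher microRNA (miR-188-5p), which entered the test only through its early LS-G6pc-/- wells. Requiring 2 cards of each genotype gave 2 lower and 2 higher microRNAs with missing values left out, and 4 lower and 1 higher with them set low. Allowing 5% missing, set low, gave 2 lower (miR-29a, miR-342-3p). The number of measured assays as a covariate gave 1 lower (miR-193b, limma, adjusted p = 0.0381). Chosen after the data were seen, LS-G6pc-/- mice of run period 1 alone gave 9 higher microRNAs, and those of run period 2 alone 49 lower. The difference in measured microRNA assays, LS-G6pc-/- minus WT, was 43 and -32.67 in these subsets. Run period as a random block gave 0 calls (limma, smallest adjusted p = 0.99).

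Leaving out each mouse in turn gave 0 to 2 lower and 0 to 2 higher microRNAs: miR-155 and miR-546 higher without LS-G6pc-/- mouse 3, miR-186 and miR-598 lower without LS-G6pc-/- mouse 5, and miR-224 higher without WT mouse 2, since fewer cards let other assays into the test. The ranges were -0.0028 to 1.91 for miR-685, -0.46 to 1.23 for miR-30d, -0.052 to 0.85 for let-7b, -0.24 to 1.07 for let-7e, -0.21 to 0.77 for miR-152, -0.94 to 0.91 for miR-101a, -0.77 to 0.056 for miR-451, -0.83 to 0.18 for miR-126-5p, -0.75 to 0.071 for miR-21, -0.55 to 1.28 for miR-409-3p, -0.83 to 0.021 for miR-142-3p and -0.66 to 0.55 for miR-192. The difference in measured assays was -14.75 to 6, with 3 to 5 assays measured in all LS-G6pc-/- and no WT mice and 0 to 3 the other way.

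No paired analysis was possible because the replicate numbers of different groups name unrelated mice. Genotype and run period cannot be told apart in these mice, and 3 WT mice limit every test.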

Other observations

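Some microRNAs outside the lists described above had levels that were high in the LS-G6pc-/- mice of run period 1. miR-27a had levels of 4.17, 4.27, -0.95, 1.40 and 2.86 in LS-G6pc-/- mice 1 to 5 and of -0.07, 1.49 and 1.57 in WT mice, so that LS-G6pc-/- mice 1, 2 and 5 were above all WT mice. miR-125b-5p was at 1.44 and 1.24 in LS-G6pc-/- mice 1 and 2, at -2.24, -3.11 and -1.82 in mice 3 to 5, and at -0.86, -2.21 and -1.72 in WT mice. It was higher in the LS-G6pc-/- mice of run period 1 than in WT by 2.94 (limma, adjusted p = 0.0162).

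Of the striated muscle microRNAs only miR-133a was tested, with levels of 2.27, 3.02, -0.79, 1.56 and -0.05 in LS-G6pc-/- mice and of 2.73, -0.98 and -0.61 in WT mice, and the groups overlapped. Of 45 assays of the imprinted cluster between Dlk1 and Dio3, 25 were measured on no card and 2 on all 8.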
